A study of Mus musculus with 24 samples.

Results

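The comparison is between mouse breast cancer cells isolated from lung metastases and from primary tumors, all carrying a short hairpin RNA labelled shAsns-1. Its members are 8 of the 24 libraries of the series, chosen by their titles: 4 lung shAsns-1 libraries and 4 tumor shAsns-1 libraries, lettered A to D at each site, and all 12625 genes with enough counts to test, of 23478 gene symbols. The cells are 4T1-T, a derivative of 4T1, a cell line from a mouse mammary carcinoma. Cells of every group were infected with a hairpin, selected with 6-thioguanine and cultured, in DMEM supplemented with non-essential amino acids; the order of these steps is not settled by the labels. The lung shAsns-1 and tumor shAsns-1 groups carry a hairpin against Asns, the lung shAsns-2 and tumor shAsns-2 groups carry another one against Asns, and the lung shRenilla and tumor shRenilla groups carry a control hairpin named after a luciferase that mouse cells lack. Each of these groups also holds 4 libraries, and the other 16 libraries are used here only to set the site difference of shAsns-1 beside those of shAsns-2 and shRenilla. The sources used here give neither the mice, their strain and age, nor what the letters stand for. Each p-value therefore refers to the scatter among the libraries alone, part or all of which may be technical. Pooling of animals and cloning of cells are not stated either.

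Cells that leave an epithelial tumor can lower E-cadherin and the other proteins that seal neighbouring cells, and can raise matrix proteins, proteases and contractile proteins, a shift called epithelial-mesenchymal transition. Asns encodes asparagine synthetase, which makes asparagine from aspartate and glutamine and is induced by ATF4 when amino acids are short. 6-thioguanine is a purine analogue that kills cells with an active Hprt salvage enzyme, and 4T1-derived lines resist it, which is how they are separated from host cells of the organ.

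The 250 bases before the annotated start of a gene from 3 of the groups of genes described below are shown to place these genes on the genome and to show the letters that known regulators read. They are from RefSeq, build GRCm38.p6, which is the build that mm10 also names, and 82 of the 127 genes chosen for naming had such a sequence. Capitals mark CACNCCAC, a form of the sterol regulatory element read by SREBP factors, in Hmgcs1; CACCTG, the E-box read by factors of the Snai and Zeb families, in Epcam; and TGANTCA, read by AP-1, in Mmp13. All 3 motifs were searched on both strands, and no motif overlapped another in these windows.
Hmgcs1 (chr13:119690101-119690350, plus strand): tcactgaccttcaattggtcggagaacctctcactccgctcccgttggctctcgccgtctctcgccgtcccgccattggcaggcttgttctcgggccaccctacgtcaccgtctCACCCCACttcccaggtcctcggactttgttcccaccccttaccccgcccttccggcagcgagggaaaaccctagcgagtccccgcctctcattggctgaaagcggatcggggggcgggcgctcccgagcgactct
Epcam (chr17:87635729-87635978, plus strand): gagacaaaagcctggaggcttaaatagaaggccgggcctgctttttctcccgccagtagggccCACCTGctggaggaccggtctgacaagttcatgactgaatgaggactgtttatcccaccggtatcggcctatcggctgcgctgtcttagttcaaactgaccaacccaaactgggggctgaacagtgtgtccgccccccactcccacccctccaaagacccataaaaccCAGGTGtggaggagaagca
Mmp13 (chr9:7272264-7272513, plus strand): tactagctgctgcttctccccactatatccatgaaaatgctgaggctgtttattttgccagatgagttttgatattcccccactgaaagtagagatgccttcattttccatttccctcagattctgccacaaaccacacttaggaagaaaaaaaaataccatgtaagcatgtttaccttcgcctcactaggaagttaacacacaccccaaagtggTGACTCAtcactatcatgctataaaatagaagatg
The sterol element starts 136 bases before the start of Hmgcs1, the 2 E-boxes start 187 and 19 bases before that of Epcam, and the AP-1 match starts 35 bases before that of Mmp13. Of 32851 mouse promoters of the same length, 5.29% hold CACNCCAC, 17.2% hold CACCTG and 6.75% hold TGANTCA, so a match describes these letters only. CACCTG also lay before genes that rose in lung, such as Icam1 and Cd274, and TGANTCA before Prl3d2, which fell. The window of the sterol synthesis gene Idi1, which fell, held no CACNCCAC.

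Total counts, in megacounts (M), were 24.8 to 35.5 M in lung shAsns-1 libraries and 25.6 to 36.4 M in tumor shAsns-1 libraries. Each of the 8 libraries lay within 0.251 to 0.305 of the mean of the others of its group (root mean square log2 CPM difference), against 0.554 for lung shAsns-2 D and 0.597 for lung shRenilla B, which stand apart. Asns was higher in the libraries labelled shAsns-1 than in those with the control hairpin. It had 219, 191, 176 and 189 CPM (library-size-scaled counts, by TMM) in lung shAsns-1 and 185, 152, 185 and 159 CPM in tumor shAsns-1, against means of 63.6 and 82.8 CPM in lung and tumor shRenilla, so the label, not the level of Asns, is what names these libraries. Between lung and tumor libraries labelled shAsns-1, Asns was not called (log2 fold change 0.19 ± 0.16 SE, adjusted p = 0.48), nor was Hprt (-0.20 ± 0.16, adjusted p = 0.471).

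Of 7 mammary epithelial markers 6 had enough counts to test, and the list summed to 419 to 469 CPM in lung and 444 to 589 CPM in tumor libraries, though Krt5 was at 0 in all 8. Markers of T and NK cells summed to 0.0268 to 0.0761 CPM in lung and 0 to 0.114 CPM in tumor libraries, with Cd3g, Cd4 and Nkg7 at 0 in all 8, and B cell markers to 0.0268 to 0.152 CPM in lung and 0 to 0.0845 CPM in tumor libraries, with Cd79b at 0 in all 8. The leukocyte gene Ptprc had 0.195 to 0.562 CPM in lung and 0.154 to 0.419 CPM in tumor libraries. Endothelial markers summed to 6.58 to 8.49 CPM in lung and 7.63 to 10.1 CPM in tumor libraries. Alveolar type 2 markers summed to 34.3 to 44.5 CPM in lung and 28.1 to 41.3 CPM in tumor libraries, and club and ciliated cell markers to 0.294 to 0.533 CPM in lung and 0.0381 to 0.308 CPM in tumor libraries. Of 2 alveolar type 2 markers with enough counts to test, the lipid transporter gene Abca3 rose, with 3.85, 3.39, 2.76 and 3.67 CPM in lung and 2.02, 2.50, 2.09 and 2.42 CPM in tumor libraries (0.59 ± 0.17, adjusted p = 0.0325), a call lost in 10 of 17 settings, and without lung D among them (adjusted p = 0.117). Of the 7 alveolar type 2 markers, 5 averaged under 1 CPM over the 8 libraries. Most of each sum therefore came from the other tested marker, which was not called. Fibroblast, macrophage and neutrophil markers are given with the genes they move with.

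Genes were called with edgeR's quasi-likelihood test at a Benjamini-Hochberg adjusted p under 0.05 over all tested genes. Between lung and tumor libraries labelled shAsns-1, 1079 of 12625 genes were called (8.55%), 758 higher in lung (6%) and 321 lower (2.54%). A change of at least 2-fold was seen in 260 of them (2.06%), 236 higher (1.87%) and 24 lower (0.19%), and the median log2 fold change of all genes was 0.03. All 4 lung libraries lay beyond all 4 tumor libraries in 3780 genes (29.9%), and 3244 (25.7%) had an unadjusted p under 0.05. The balance of directions changed with the settings of the fit. Log2 fold changes rose with the GC content of the transcript (Spearman 0.23 over 11901 annotated genes, which are not independent). With offsets for GC content and length together, added after seeing the data, 1798 genes were called, 681 higher and 1117 lower. These offsets also moved the median log2 fold change to -0.045, and the part of GC content alone was not tested. With DESeq2 the split was 841 to 577, with limma and library weights 2190 to 1926, without the 2 libraries that stand apart 1633 to 1382, and with only the compared groups 1837 to 1846. The counts below are therefore read beside the individual values, and a member named as called had a test of its own. Counts of list members are also to be read against all genes, of which 6% were called higher and 2.54% lower.

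**Figure D1:**
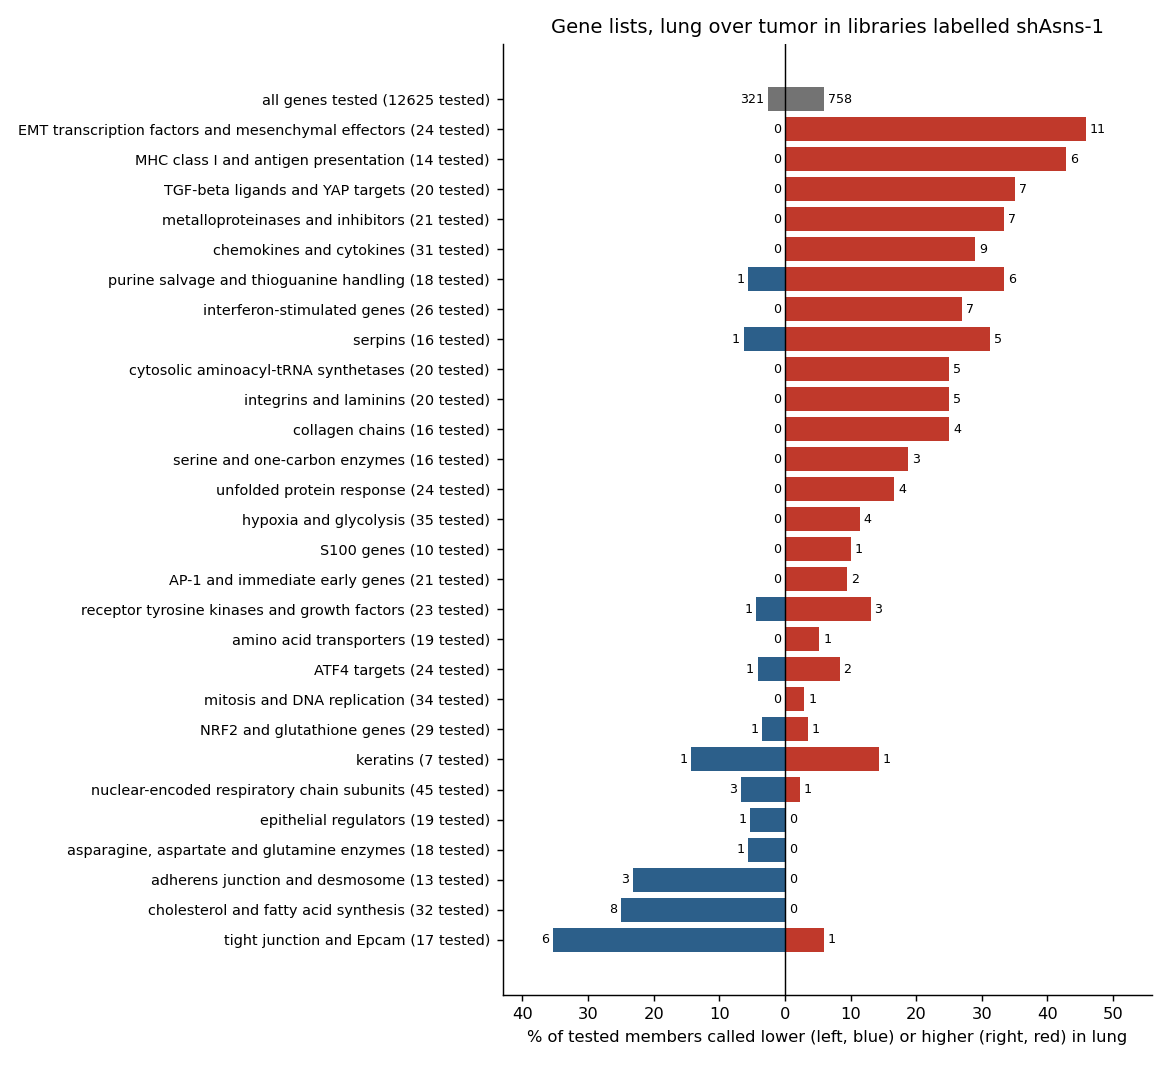
Share of the tested members of each gene list (down the page, with the number tested) called lower (bars to the left, blue) or higher (bars to the right, red) in lung shAsns-1 against tumor shAsns-1 libraries, in percent, with the number of genes at each bar end. The grey bars at the top show all genes tested, 758 higher and 321 lower; the mesenchymal list holds the longest bar to the right with 11 of 24 and the tight junction list the longest to the left with 6 of 17.

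Genes of cell-cell contact were lower in lung. Cdh1, which encodes E-cadherin, had 19.2, 24.5, 19.0 and 18.6 CPM in lung libraries, against 29.9, 47.6, 36.1 and 32.0 CPM in tumor libraries. The groups do not overlap, with lung B the highest of the lung libraries and tumor B the highest of all, and Cdh1 fell by 0.84 on the log2 scale (SE 0.18, adjusted p = 0.00448). Epcam, the epithelial adhesion molecule whose promoter is printed above, had 12.9, 11.5, 8.27 and 10.7 CPM in lung and 19.9, 21.7, 21.0 and 15.5 CPM in tumor libraries, again without overlap (log2 fold change -0.85 ± 0.15, adjusted p = 0.000922). Here as below, fewer cells of a type and less RNA per cell cannot be told apart.

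Of 13 tested genes of adherens junctions and desmosomes, 3 fell and none rose (median log2 fold change -0.21, against 0.03 over all genes): Cdh1, Jup, which encodes plakoglobin (-0.60), and Perp, a desmosome component (-0.56). Of 17 tight junction genes including Epcam, 6 fell and 1 rose (median -0.35). Those that fell were Epcam, the claudin Cldn3 (-1.03), the occludin family genes Ocln (-0.90), Marveld2 (-0.48) and Marveld3 (-0.99), and the polarity gene Pard6b (-0.61), while F11r, a junctional adhesion molecule, rose by 0.57. The call of F11r was lost without tumor A, tumor B, tumor D, lung A or lung D, and with GC and length offsets. Ocln had 2.78, 2.80, 1.98 and 1.81 CPM in lung and 3.66, 4.35, 5.35 and 4.03 CPM in tumor libraries. The count of tight junction genes called lower was 3 without tumor B, lung C or lung D, and 1 with counts thinned to the smallest library.

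Among 7 tested keratins, the luminal keratin Krt7 fell and Krt16, a keratin of stressed epithelium, rose (median over the 7, 0.02). Krt7 had 3.46, 7.01, 3.67 and 4.32 CPM in lung and 11.0, 19.5, 11.8 and 8.41 CPM in tumor libraries (-1.46 ± 0.25, adjusted p = 0.000642). Krt16 was low in all, with 1.52, 1.44, 1.69 and 1.58 CPM in lung and 1.03, 0.848, 0.705 and 0.611 CPM in tumor libraries (0.98 ± 0.24, adjusted p = 0.0115), and its call was lost without tumor D and with thinned counts. Krt8 and Krt18, the main keratins of simple epithelium, had log2 fold changes of -0.24 and -0.12 and were not called.

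Of 19 epithelial regulators, 1 was called, lower in lung (median of the list 0.07). Esrp1, an epithelial splicing factor, had 0.228, 3.85, 0.401 and 0.0772 CPM in lung and 2.78, 6.74, 2.71 and 1.78 CPM in tumor libraries, and was not called (-1.65 ± 0.56, adjusted p = 0.0625). The B library of each site was the highest of its group for Esrp1, as it was for Cdh1 and Krt7.

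Mesenchymal genes were higher in lung, mostly at low levels. Of 24 tested transcription factors and effectors of epithelial-mesenchymal transition, 11 rose and none fell (median log2 fold change 0.68, against 0.03 over all genes). Acta2, the smooth muscle actin of myofibroblasts, had 3.50, 1.48, 3.77 and 5.21 CPM in lung libraries, against 0.381, 0.424, 0.310 and 0.333 CPM in tumor libraries (3.27 ± 0.39, adjusted p = 8.69e-06). Tagln, an actin-binding protein of contractile cells, had 3.31, 1.98, 4.33 and 4.83 CPM in lung and 0.572, 0.655, 0.676 and 0.444 CPM in tumor libraries (2.63 ± 0.26). All lung libraries exceeded all tumor libraries in both genes.

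Others that rose were Lox, which crosslinks collagen (4.01 ± 0.66), the transcription factor Prrx1 (3.27 ± 0.56), the cadherin Cdh11 (3.20 ± 0.48), the secreted protein Fstl1 (2.26 ± 0.36), Mmp2 (1.71 ± 0.40), Tnc, which encodes tenascin-C (1.05 ± 0.24), Snai1 (0.89 ± 0.27) and Fn1 (0.66 ± 0.19). Fn1, the gene of fibronectin, was by far the most abundant of them, with 1080, 931, 1027 and 1258 CPM in lung and 661, 644, 706 and 704 CPM in tumor libraries (adjusted p = 0.0259). Snai1, a repressor of Cdh1, had 2.74, 2.80, 2.76 and 2.93 CPM in lung and 1.45, 1.81, 1.32 and 1.50 CPM in tumor libraries (adjusted p = 0.0392).

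The adjusted p of Snai1 was above 0.05 whichever of the 8 libraries was left out (up to 0.106), and that of Fn1 when any of 6 of them was left out. Other genes of this program were not called. Zeb1, another Cdh1 repressor, had 2.17, 1.67, 1.63 and 1.78 CPM in lung and 1.03, 0.963, 1.55 and 0.861 CPM in tumor libraries (0.71 ± 0.23, adjusted p = 0.0525). Vim, which encodes vimentin, was abundant at 3162 to 4084 CPM in lung and 3794 to 4728 CPM in tumor libraries (-0.30 ± 0.12, adjusted p = 0.112), and Twist1 (-0.30, adjusted p = 0.251) and Zeb2 (-0.03, adjusted p = 0.914) were not called either.

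Collagens and several matrix genes rose most in library lung D. Col5a2, a chain of fibrillar collagen V, had 3.27, 2.06, 2.38 and 10.0 CPM in lung and 0.153, 0.0771, 0.113 and 0.0555 CPM in tumor libraries (5.44 ± 0.64, adjusted p = 8.69e-06). Col3a1, of fibrillar collagen III, had 296 counts in all over the lung libraries and 3 over the tumor libraries, a ratio of 106 (exact 95% interval 35.9 to 516, which covers counting error only). Col1a2, a chain of collagen I, had 2.09, 0.895, 1.23 and 8.53 CPM in lung and 0.153, 0.501, 0.141 and 1.39 CPM in tumor libraries, so that tumor D lay above lung B and lung C (2.47 ± 0.59, adjusted p = 0.0104, and 0.145 without lung D). With Col12a1 (1.17 ± 0.25), 4 of 16 tested collagen chains rose and none fell (median 0.44).

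Col1a1 was too low to be tested, with 61 counts over the lung and 1 over the tumor libraries. Lum had 27 counts in lung and 1 in tumor libraries, and Pdgfrb 29 in lung and 0 in tumor libraries. The lung level of Pdgfrb was 10.4-fold that of a floor of 3 counts over the tumor group. The exact 95% lower limit of its ratio was 7.91, for counting error only. These genes are also fibroblast markers. Of 9 such markers 5 were tested and 3 rose, Dcn, Col1a2 and Col3a1, and the list summed to 34.3 to 70.1 CPM in lung libraries, highest in D, and 24.0 to 32.4 CPM in tumor libraries. Dcn, the proteoglycan decorin, had 2.40, 2.92, 1.31 and 8.61 CPM in lung and 0.648, 0.617, 0.620 and 0.694 CPM in tumor libraries. Col1a1, Col1a2 and Col3a1 together had 1.28 to 18.5 CPM in lung and 0.191 to 1.42 CPM in tumor libraries. Most of each list sum therefore came from markers other than Dcn and these collagens, and 5 of the 9 averaged under 1 CPM. Whether fibroblast RNA takes part in the mesenchymal, collagen and protease counts was not tested. Without lung D, 7 of the 24 mesenchymal genes and 3 of the 16 collagens were called higher, and the median of the mesenchymal list was 0.64.

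**Figure D2:**
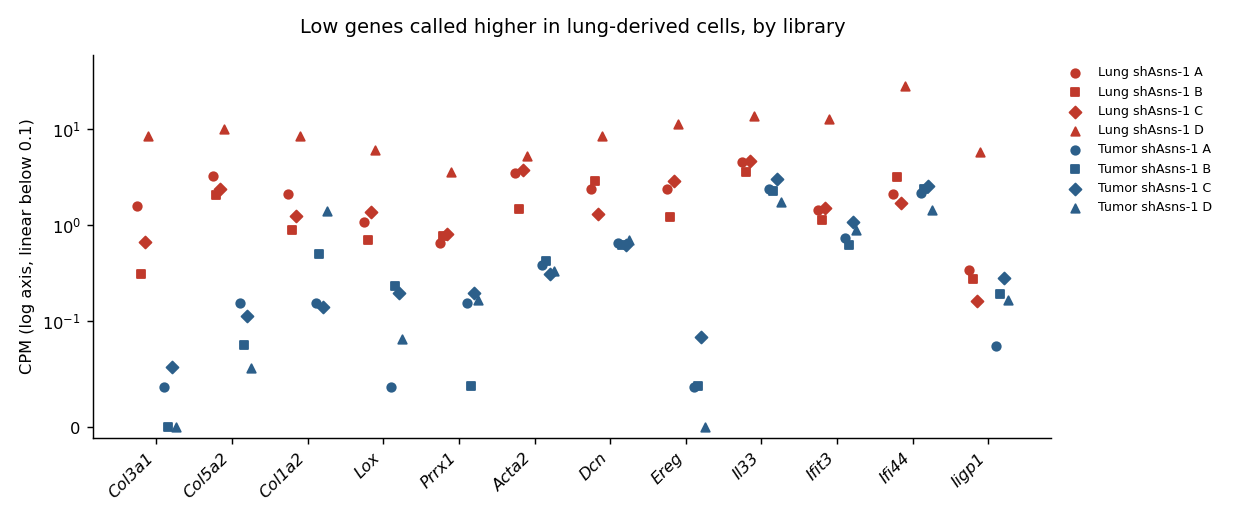
CPM (vertical, logarithmic above 0.1 and linear below) of 12 genes called higher in lung shAsns-1 libraries, by library; red marks are lung, blue marks tumor, and the marker shape gives the letter. Lung D (red triangles) is the highest library for all 12 genes, at 8.53 CPM for Col3a1 against 0.311 to 1.60 CPM in the other lung libraries.

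Proteases that cut matrix rose with the matrix genes. Mmp13, an interstitial collagenase whose promoter is printed above, had 17.9, 12.6, 15.9 and 24.6 CPM in lung libraries, against 4.39, 2.70, 4.99 and 3.69 CPM in tumor libraries. The lowest lung library was above the highest tumor library, which the rule for naming the largest changes required (2.16 ± 0.29, adjusted p = 4.39e-05). Of 21 metalloproteinases, plasminogen activators and inhibitors, 7 rose and none fell (median 0.54). They were Mmp13, the macrophage elastase Mmp12 (3.00 ± 0.49), the inhibitor Timp3 (4.06 ± 0.53), Mmp2, the gelatinase Mmp9 (1.10 ± 0.25) and the plasminogen activators Plat (1.33 ± 0.21) and Plau (0.92 ± 0.18).

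Mmp9 and Plau were the more abundant ones. Mmp9 had 21.5, 20.2, 22.8 and 28.2 CPM in lung and 9.69, 9.06, 11.7 and 12.5 CPM in tumor libraries, and Plau 47.7, 47.6, 40.1 and 58.3 CPM in lung and 22.8, 21.5, 33.7 and 24.0 CPM in tumor libraries. Mmp3, the most abundant member, had 448 to 727 CPM in lung and 324 to 715 CPM in tumor libraries, and the groups overlapped (0.22 ± 0.21, adjusted p = 0.55). Of 20 integrin and laminin subunits, 5 rose and none fell (median 0.12): Itgb3 (0.97 ± 0.20), Itgb5 (0.76 ± 0.15), Itgb7 (0.68 ± 0.20), Lamb2 (0.98 ± 0.22) and Lamb3 (1.48 ± 0.37), with 3 called without tumor B or lung D.

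Of 20 TGF-beta ligands, their regulators and YAP targets, 7 rose and none fell (median 0.30). Among them were the ligand genes Tgfb2 (0.69 ± 0.15), Tgfb3 (0.45 ± 0.12) and Inhba (0.92 ± 0.28), the pathway inhibitors Smad7 (0.78 ± 0.23) and Skil (0.44 ± 0.13), and the target Tgfbi (1.18 ± 0.33). Only 1 of the 7 was called without lung D, and 1 to 5 over all libraries left out in turn. Smad7 had 35.2, 36.9, 40.8 and 45.6 CPM in lung and 23.5, 21.7, 21.1 and 26.4 CPM in tumor libraries. Of 16 serpins, 5 rose, with Serpina3g (2.19 ± 0.47) and Serpine2 (1.20 ± 0.24) among them, and Serpinb5, which encodes maspin, fell by 1.07; 2 were called higher without lung D. The call of Serpinb5 was lost without tumor A, tumor B, lung C or lung D, and with no filter on low counts.

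Inflammatory genes were higher in lung. Icam1, an adhesion molecule for leukocytes that NF-kB induces, had 18.9, 13.3, 15.3 and 18.4 CPM in lung libraries, against 5.26, 6.01, 6.00 and 6.47 CPM in tumor libraries (1.47 ± 0.19, adjusted p = 3.65e-05). These libraries did not overlap, which the rule for naming the largest changes required. Of 31 tested chemokine, cytokine and related genes, 9 rose and none fell (median 0.42). Il11, a cytokine of the Il6 family, had 26.4, 24.3, 26.1 and 37.2 CPM in lung and 11.6, 6.82, 13.6 and 13.0 CPM in tumor libraries (1.34 ± 0.25, adjusted p = 0.00142).

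The others that rose were low. Il6 had 2.44, 0.856, 1.20 and 4.40 CPM in lung and 0.381, 0.308, 0.451 and 0.500 CPM in tumor libraries (2.39 ± 0.40). The neutrophil attractants Cxcl2 (1.80 ± 0.30) and Cxcl3 (1.14 ± 0.23), Cxcl16 (0.47 ± 0.14), and the cytokines Il1a (1.06 ± 0.23), Tnf (1.49 ± 0.38) and Il33 (1.50 ± 0.37) complete the list. Il33 lost its call without lung D (adjusted p = 0.132), and 6 of the 31 genes were called without that library. Cxcl1 (-0.28), Ccl2 (0.05), Csf2 (0.55) and Lcn2 (0.74) were not called.

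Some markers of myeloid cells moved in the same direction, while the leukocyte gene Ptprc was not called (log2 fold change 0.33). S100a8, which neutrophils and also many carcinoma cells express, had 8.30, 8.83, 7.60 and 10.1 CPM in lung and 2.75, 2.66, 3.33 and 2.36 CPM in tumor libraries (1.65 ± 0.22, adjusted p = 4.39e-05). It was the only 1 of 5 neutrophil markers in the file with enough counts to test, and the list summed to 7.84 to 10.2 CPM in lung and 2.36 to 3.33 CPM in tumor libraries. Of 7 macrophage and monocyte markers 4 were tested and 2 rose: Lyz2, lysozyme, had 4.11, 1.36, 2.59 and 7.84 CPM in lung and 0.191, 0.385, 0.676 and 0.0833 CPM in tumor libraries, and Cd14 rose by 0.56 ± 0.12. That list summed to 28.4 to 38.3 CPM in lung and 20.5 to 24.3 CPM in tumor libraries. Whether RNA of such cells takes part in the cytokine counts was not tested.

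Genes that interferons induce depended on lung D. Of 26, 7 rose and none fell (median 0.53), and without lung D 1 was called and the median was 0.23. Ifit3 had 1.45, 1.13, 1.52 and 12.8 CPM in lung and 0.725, 0.617, 1.07 and 0.888 CPM in tumor libraries (adjusted p = 0.00763, and 0.146 without lung D). Ifi44 and Iigp1 likewise stood at 28.1 and 5.75 CPM in lung D, against 1.69 to 3.15 and 0.161 to 0.343 CPM in the other lung libraries. Bst2, which encodes tetherin, was the called member without that library, with a mean of 1.16 ± 0.289 CPM in lung and 0.318 ± 0.0926 CPM in tumor libraries (SD, n = 4 each; log2 fold change 1.82 ± 0.40, edgeR adjusted p = 0.00634, and 0.0361 without lung D).

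Antigen presentation genes were less tied to that library. Of 14, 6 rose and none fell (median 0.42): Cd274, which encodes the T-cell inhibitor PD-L1, the peptide transporter Tap2, the immunoproteasome subunits Psmb8 and Psmb9, and the class I genes H2-Q4 and H2-T23. Cd274 had 2.67, 2.72, 2.22 and 3.47 CPM in lung and 1.41, 1.08, 1.38 and 0.777 CPM in tumor libraries (1.25 ± 0.23, adjusted p = 0.00127). Psmb8 had 30.4, 25.5, 28.8 and 36.9 CPM in lung and 14.9, 18.3, 15.6 and 12.1 CPM in tumor libraries (1.00 ± 0.18). H2-Q4 belongs to a family of similar genes among which reads may be split, so its value is uncertain, and 4 of the 6 were called without lung D.

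Ereg and 2 fibroblast growth factor receptors rose. Ereg, which encodes the EGF receptor ligand epiregulin, had 2.40, 1.21, 2.89 and 11.4 CPM in lung and 0.0381, 0.0385, 0.0845 and 0 CPM in tumor libraries (adjusted p = 2.68e-06). Fgfr1, a receptor of fibroblast growth factors, had 10.5, 8.76, 9.04 and 11.1 CPM in lung and 3.05, 3.04, 4.45 and 3.53 CPM in tumor libraries (1.47 ± 0.22, adjusted p = 0.000149). Fgfr2 rose by 0.98 ± 0.29, a call lost without tumor A, tumor B, tumor D, lung B, lung C or lung D, and with no filter on low counts. Macc1, a regulator of Met expression, fell by 0.92 (SE 0.17, adjusted p = 0.00103), with 4.38, 8.06, 4.55 and 4.83 CPM in lung and 9.04, 12.0, 11.0 and 9.13 CPM in tumor libraries. These were the 3 higher and 1 lower calls among 23 receptor tyrosine kinase and growth factor genes (median 0.11), and with GC and length offsets 6 were lower.

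Of 21 AP-1 and immediate early genes, 2 rose and none fell (median 0.12), against 6% and 2.54% of all genes. Atf3, a stress-induced transcription factor, had 8.11, 7.55, 7.97 and 8.76 CPM in lung and 4.77, 4.82, 4.54 and 4.30 CPM in tumor libraries, with little spread in either group (0.82 ± 0.12, adjusted p = 0.00013). Ier3 rose by 0.63 ± 0.19 and lost its call without any of the 8 libraries.

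Sterol and lipid synthesis genes were lower in lung. Of 32, 8 fell and none rose (median -0.23, against 0.03 over all genes). Hmgcs1, the enzyme that makes HMG-CoA for cholesterol, had 59.4, 71.3, 65.2 and 69.5 CPM in lung libraries, against 104, 152, 103 and 105 CPM in tumor libraries, without overlap (-0.81 ± 0.17, adjusted p = 0.00386). Insig1, which SREBP factors induce and which holds them back, had 6.28, 6.62, 5.54 and 8.22 CPM in lung and 9.99, 19.7, 10.8 and 10.7 CPM in tumor libraries (-0.94 ± 0.19, adjusted p = 0.00323).

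Scd2, a fatty acid desaturase, had 163, 185, 170 and 181 CPM in lung and 312, 618, 319 and 358 CPM in tumor libraries (-1.20 ± 0.23, adjusted p = 0.0015). Idi1, which isomerises isopentenyl diphosphate, had 71.8, 55.7, 50.3 and 68.8 CPM in lung and 144, 137, 124 and 99.9 CPM in tumor libraries (-1.04 ± 0.27, adjusted p = 0.0157). Tumor B was the highest library for Scd2, Insig1 and Hmgcs1, and all 4 tumor libraries were above all 4 lung libraries for each of these 4 genes. The rule for naming the largest changes required this separation of Scd2, Insig1 and Idi1, and the groups did not overlap in 29.9% of all genes. Cyp51 (-0.66), Stard4 (-0.48) and the desaturase Fads1 (-0.40) also fell, whereas Sqle (-0.25) and Fasn (-0.18) were not called. The count was 4 without lung C, the lowest of the 8 left-out fits, 5 without tumor B and 13 with GC and length offsets.

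Of 18 enzymes of asparagine, aspartate and glutamine, 1 was called, Adss of adenylosuccinate synthesis (-0.42 ± 0.13), and not with any library left out; with GC and length offsets 4 were called lower. Of 24 ATF4 targets, 2 rose and 1 fell (median 0.06), against 6% and 2.54% of all genes. The one that fell was Cth, which makes cysteine from cystathionine, with 9.25, 11.4, 9.95 and 10.4 CPM in lung and 20.1, 21.3, 22.4 and 21.1 CPM in tumor libraries (-1.05 ± 0.21, adjusted p = 0.00251).

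The folate enzyme Mthfd2 (0.28 ± 0.09, adjusted p = 0.0491) and the phosphatase subunit Ppp1r15a (0.74 ± 0.21, adjusted p = 0.0288) rose. Mthfd2 lost its call whichever of the 8 libraries was left out, and Ppp1r15a with 6 of them. Atf4 itself (0.06), Ddit3 (0.15), Trib3 (0.16) and Chac1 (-0.15) were not called. Mthfd2, Shmt1 (0.33 ± 0.09) and Gldc (1.03 ± 0.31) made up 3 calls among 16 serine and one-carbon genes (median 0.05), with 0 to 2 over the libraries left out. Among 19 amino acid transporters, Slc43a2, a carrier of large neutral amino acids, was called (0.84 ± 0.20, adjusted p = 0.00889; median 0.09).

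Cytosolic aminoacyl-tRNA synthetases, which charge tRNAs with amino acids, were partly higher in lung. Of 20, 5 rose and none fell (median 0.24): Sars, for serine (0.76 ± 0.18), Farsa, for phenylalanine (0.61 ± 0.14), Aars, for alanine (0.43 ± 0.11), Yars, for tyrosine (0.42 ± 0.11), and Qars, for glutamine (0.32). Sars had 170, 140, 144 and 154 CPM in lung and 89.6, 85.7, 102 and 82.6 CPM in tumor libraries. Nars, which charges tRNA with asparagine, was not called (0.21). In 15 of the 20 the libraries did not overlap, against 29.9% of all genes; 2 were called without tumor D and 3 without lung D or with GC and length offsets.

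Of 24 unfolded protein response genes, 4 rose and none fell (median 0.27): the chaperone Hyou1 (0.78 ± 0.18), the disulfide isomerases P4hb (0.59 ± 0.16) and Pdia6 (0.57 ± 0.18), and Herpud1, of the degradation machinery (0.56 ± 0.11, adjusted p = 0.0021). Hyou1 had 23.5, 20.6, 23.4 and 22.9 CPM in lung and 11.7, 12.6, 13.5 and 14.7 CPM in tumor libraries. The chaperone Hspa5 (0.48) was not called, and 2 genes were called without tumor B, tumor D, lung A or lung D.

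Of 29 NRF2 and glutathione genes 2 were called (median 0.11), against 8.55% of all genes. The first was Hmox1, the haem-degrading enzyme induced by NRF2 and by haem. It had 109, 91.8, 109 and 135 CPM in lung libraries, against 40.0, 30.4, 46.3 and 40.6 CPM in tumor libraries (1.50 ± 0.27, adjusted p = 0.000868). The other was the peroxiredoxin Prdx1 (-0.47 ± 0.15), which lost its call in 7 of the 8 fits that leave out a library, all but that without lung A, while Nqo1 (0.29), Gclm (-0.08) and Txnrd1 (0.29), other NRF2 targets, were not called.

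Of 18 genes of purine salvage and thioguanine handling, 6 rose and 1 fell (median 0.19). Nt5e, which encodes the ectonucleotidase CD73, had 354, 325, 327 and 465 CPM in lung and 186, 175, 238 and 208 CPM in tumor libraries (0.87 ± 0.15, adjusted p = 0.000854). Xdh, xanthine dehydrogenase, rose by 1.13 ± 0.23, and Impdh2 (0.67 ± 0.15), the nucleoside carrier Slc29a1 (0.62 ± 0.16), Nt5c2 (0.39 ± 0.10) and Gart (0.31 ± 0.09) rose as well. Tpmt, which methylates thiopurines, fell by 0.48 (SE 0.12). Without tumor B, tumor D or lung D, 3 were called higher.

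Of 35 hypoxia and glycolysis genes, 4 rose (median 0.10), against 6% of all genes. They were the prolyl hydroxylases P4ha2 (1.04 ± 0.22) and P4ha1 (0.62 ± 0.16), the pyruvate kinase Pkm (0.66 ± 0.17) and the carbonic anhydrase Car12 (0.57 ± 0.11). Without lung D 2 were called. Slc2a1 (-0.06), Ldha (0.17) and Bnip3 (-0.34) were not called. Of 34 mitosis and replication genes 1 was called, the mitotic kinesin Kif20a (0.87 ± 0.24), not called without tumor A, tumor B, tumor D, lung A or lung D, with Mki67 at 0.04 and Top2a at 0.18. Of 45 nuclear-encoded respiratory chain subunits, Uqcrc1 of complex III rose (0.88 ± 0.20) and the complex I subunits Ndufb5 (-0.43), Ndufv2 (-0.43) and Ndufs4 (-0.36) fell (median -0.19). None of these 3 was called without tumor A, lung B, lung C or lung D, and with GC and length offsets 10 subunits were lower. A fit of only the compared groups called 23 lower, limma 19 and a fit without shRenilla B and shAsns-2 D of lung 13, and lung and tumor libraries did not overlap for 30 of the 45, against 29.9% of all genes. S100a8 was the only call among 10 S100 genes (median -0.12).

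The largest changes among genes with a mean log2 CPM of 3 or more lay partly outside these lists. The symbol Rn45s, for the ribosomal RNA precursor, had 1756, 2869, 2528 and 2499 CPM in lung and 612, 273, 650 and 562 CPM in tumor libraries (2.20 ± 0.40, adjusted p = 0.00109). It ranged from 906 to 1607 CPM in tumor shAsns-2 and from 1369 to 2256 CPM in tumor shRenilla, so the tumor shAsns-1 libraries were the lowest of the tumor groups. Its level depends on how much ribosomal RNA a library holds, and its part in other differences was not tested.

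Among protein-coding genes, Pdgfrl, a PDGF receptor-like gene, had 21.5, 13.0, 14.8 and 29.7 CPM in lung and 7.89, 5.20, 7.83 and 4.44 CPM in tumor libraries (1.64 ± 0.23). Sdc3, the cell-surface proteoglycan syndecan-3, had 21.1, 16.0, 20.1 and 21.0 CPM in lung and 6.37, 6.97, 6.31 and 7.88 CPM in tumor libraries (1.50 ± 0.22). Hsd11b1, which regenerates active glucocorticoid (1.51 ± 0.28), Clu, the secreted chaperone clusterin (1.44 ± 0.27), Ptgs1, the prostaglandin synthase COX-1 (1.43 ± 0.23), and the adhesion receptor Gpr97 (1.42 ± 0.27) followed. All 4 lung libraries were above all 4 tumor libraries in these genes, as the rule for naming them required.

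In the other direction, the placental lactogen genes Prl3d2 (-1.63 ± 0.27), Prl3d3 (-1.59 ± 0.29) and Prl3d1 (-1.44 ± 0.27) fell together. Prl3d2 had 28.9, 20.5, 15.3 and 29.2 CPM in lung and 117, 42.5, 52.4 and 77.8 CPM in tumor libraries, with tumor A the highest. Their transcripts are 98.4 to 98.5% identical over 853 to 856 aligned bases, so reads may be split among them and the 3 values are uncertain and not separate. The lymphoid-regulated gene Xlr, on chromosome X and also from a family of similar copies, had 5.14, 9.73, 6.71 and 6.10 CPM in lung and 32.6, 14.5, 12.1 and 16.8 CPM in tumor libraries (-1.45 ± 0.30), and Hcfc1r1 (-0.97 ± 0.20) and AI413582 (-0.95 ± 0.23) also fell.

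**Figure D3:**
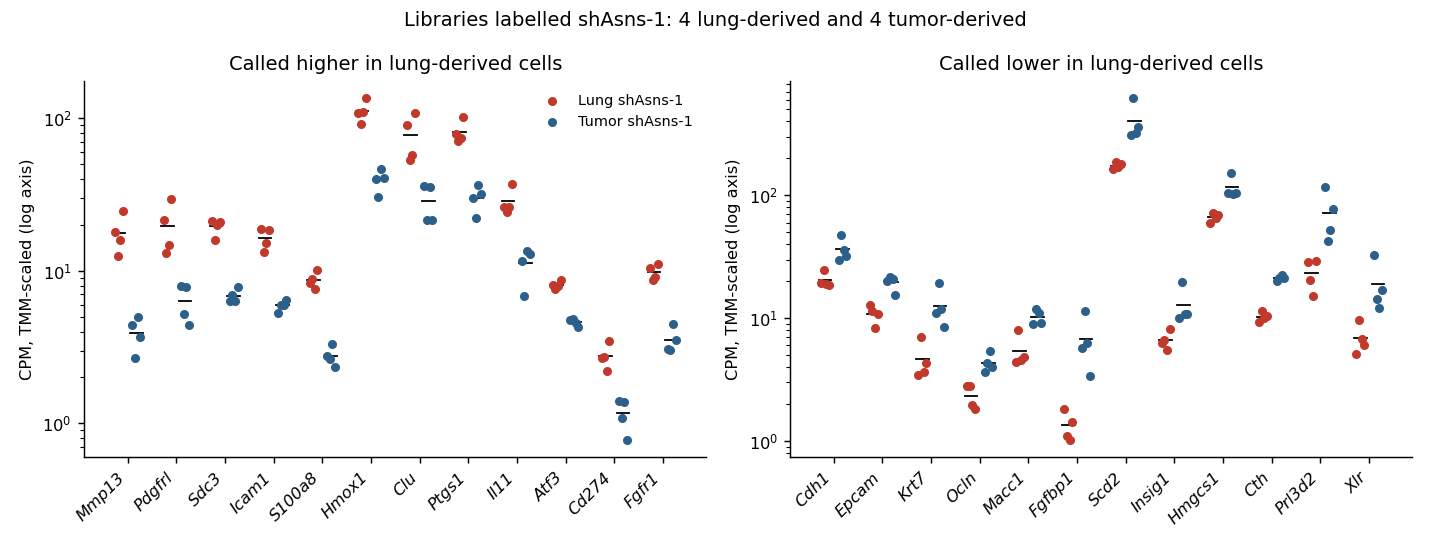
CPM (vertical, logarithmic axis) in each of the 4 lung shAsns-1 libraries (red, left of each pair) and the 4 tumor shAsns-1 libraries (blue, right of each pair) for 12 genes called higher (left panel) and 12 called lower (right panel) in lung; black bars are group means. In none of the 24 genes do the points of the groups overlap, as for Cth with 9.25 to 11.4 CPM in lung and 20.1 to 22.4 CPM in tumor libraries. The rule for naming the largest changes required this of some of them, and 29.9% of all genes showed it.

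The site difference of shAsns-1 was then set beside those of the other hairpins, which share no library with it. With shRenilla, 2749 genes were called between lung and tumor (21.8%), 1509 higher (12%) and 1240 lower (9.82%), and with shAsns-2 2642 (20.9%), 1270 higher (10.1%) and 1372 lower (10.9%). Of genes called with shAsns-1, 296 were called in the same direction with shRenilla, which is 27.4% of the shAsns-1 calls and 10.8% of the shRenilla calls, and 88 in the opposite direction. With shAsns-2 the numbers were 296, which is 27.4% and 11.2%, and 74. Across all 12625 genes, which are not independent, the log2 fold changes of shAsns-1 correlated with those of shRenilla at Pearson 0.26 (Spearman 0.08), while those of shAsns-2 and shRenilla correlated at 0.83. The tests of the difference itself, lung minus tumor in shAsns-1 less lung minus tumor in another hairpin, called 1797 genes against shRenilla (14.2%), 879 higher (6.96%) and 918 lower (7.27%), and 1468 against shAsns-2 (11.6%), 870 higher (6.89%) and 598 lower (4.74%). With GC and length offsets these were 962 higher and 1399 lower, and 953 higher and 1198 lower.

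**Figure D4:**
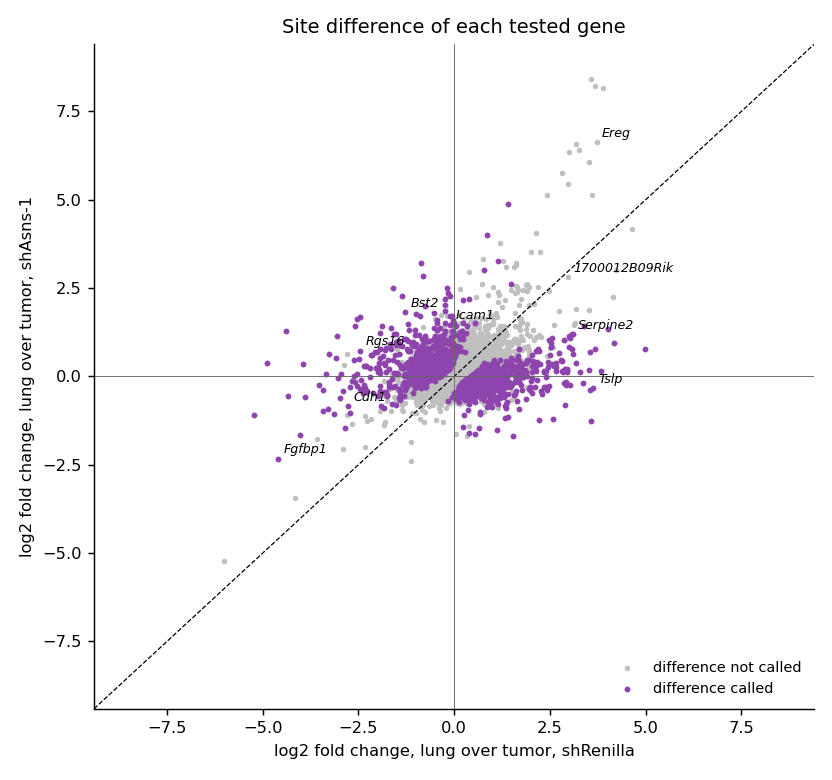
Log2 fold change of lung over tumor libraries with shAsns-1 (vertical) against that with shRenilla (horizontal) for each of 12625 tested genes; purple points are the 1797 genes whose 2 changes differ (edgeR, adjusted p under 0.05), grey points the rest, and the dashed line marks equal changes. Many purple points lie along the horizontal axis, as Tslp at -0.33 for shAsns-1 and 3.62 for shRenilla.

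Differences from shRenilla were ranked among called genes with a mean log2 CPM of 3 or more over the libraries of both hairpins. The 5 of these genes with the largest negative difference were high in lung and tumor libraries with shAsns-1 and low in the tumor libraries of the other hairpins. Tslp, a cytokine that acts on dendritic cells, averaged 382 ± 66.0 CPM in lung and 480 ± 98.4 CPM in tumor libraries with shAsns-1 (SD, n = 4), and the libraries overlapped (log2 fold change -0.33 ± 0.18, adjusted p = 0.255). It averaged 366 ± 28.7 and 56.7 ± 14.3 CPM in lung and tumor shAsns-2, and 567 ± 110 and 46.0 ± 10.4 CPM in lung and tumor shRenilla. The difference between the site changes of shAsns-1 and shRenilla was -3.95 ± 0.27 (adjusted p = 4.55e-10). The difference was also negative for the cell adhesion gene Amigo2 (-3.94 ± 0.32), the matrix Gla protein gene Mgp (-3.53 ± 0.39), the pseudokinase gene Trib2 (-3.17 ± 0.25) and the semaphorin gene Sema6d (-2.76 ± 0.22), and none of these 5 was called between the sites with shAsns-1. In other fits of that comparison limma called Tslp, Amigo2, Trib2 and Sema6d, a fit of only the compared groups called Amigo2 and Trib2, and GC and length offsets Sema6d.

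Genes that were lower in lung with shRenilla gave the opposite sign. Krt14, a basal keratin, averaged 7.84 ± 0.449 CPM in lung and 5.66 ± 0.649 CPM in tumor libraries with shAsns-1, against 9.79 ± 2.22 and 42.1 ± 9.51 CPM in lung and tumor shAsns-2, and 8.32 ± 2.21 and 50.8 ± 3.80 CPM in lung and tumor shRenilla (difference 3.09 ± 0.25, adjusted p = 7.13e-09). Ctgf, a YAP target, averaged 56.2 ± 6.65 and 46.0 ± 2.07 CPM in lung and tumor shAsns-1, and 63.5 ± 17.9 and 324 ± 82.0 CPM in lung and tumor shRenilla (difference 2.64 ± 0.37). Rgs16 (3.19 ± 0.40), which regulates G protein signals, and Lamb3 (2.69 ± 0.51) also had a positive difference. Lamb3 rose in lung with shAsns-1 and fell with shRenilla (-1.21).

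**Figure D5:**
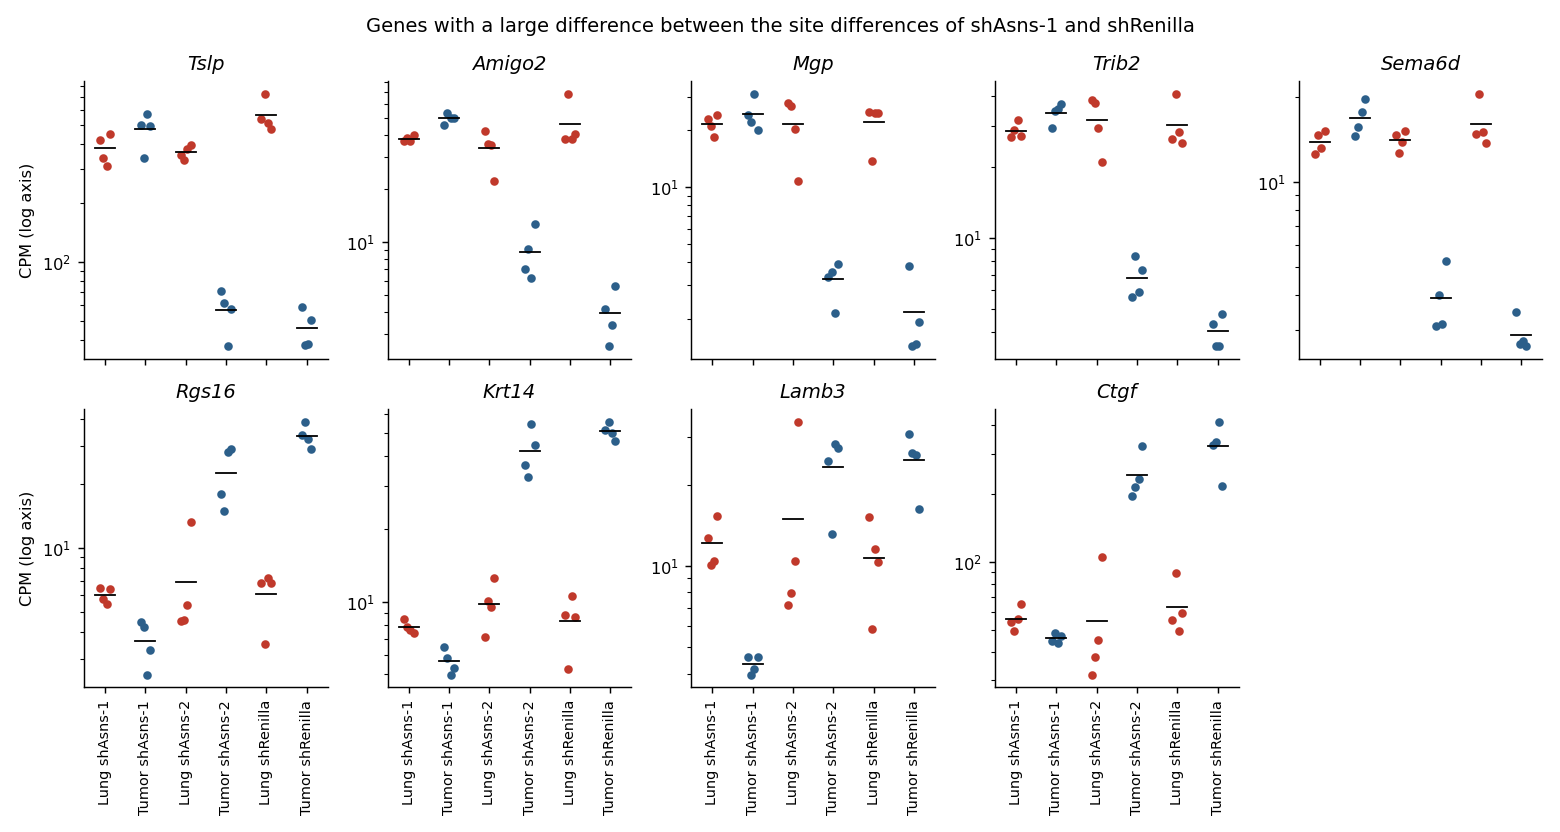
CPM (vertical, logarithmic axis, a scale for each panel) of 9 genes with a large difference between the site changes of shAsns-1 and shRenilla, in lung (red) and tumor (blue) libraries of shAsns-1, shAsns-2 and shRenilla, 4 libraries each with their mean as a black bar. In the upper row the tumor shAsns-2 and tumor shRenilla libraries are low, as in Tslp with means of 56.7 and 46.0 CPM, and in the lower row they are high, as in Krt14 with 42.1 and 50.8 CPM; tumor shAsns-1 is high in the upper row and has the lowest mean of the 6 groups in the lower row, as in Lamb3 with 4.34 CPM.

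The epithelial decrease was smaller with shAsns-1. Cdh1 averaged 20.3 ± 2.80 CPM in lung and 36.4 ± 7.91 CPM in tumor libraries with shAsns-1, against 33.3 ± 7.38 and 226 ± 57.5 CPM in lung and tumor shRenilla, and 34.3 ± 1.03 and 244 ± 48.0 CPM in lung and tumor shAsns-2. Its log2 fold change was -0.84 with shAsns-1 and -2.76 with shRenilla, a difference of 1.92 ± 0.25 (adjusted p = 8.18e-06). Epcam (difference 1.06 ± 0.21), Krt7 (1.38 ± 0.34) and Macc1 (2.37 ± 0.23) differed likewise. Of 17 tight junction genes 11 had a called difference from shRenilla, all positive, against 6.96% of all genes with a positive one. Of 32 sterol and lipid synthesis genes, 24 fell with shRenilla (median -0.64) and 27 with shAsns-2 (median -0.97), against 8 with shAsns-1, and 7 had a called difference from shRenilla. Over all genes, 9.82% fell with shRenilla, 10.9% with shAsns-2 and 2.54% with shAsns-1, and 14.2% had a called difference from shRenilla.

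Several inflammatory and stress genes had a site change with shAsns-1 that differed from that with shRenilla. Icam1 averaged 16.5 ± 2.66 and 5.94 ± 0.499 CPM in lung and tumor shAsns-1, and 13.6 ± 1.74 and 14.7 ± 1.64 CPM in lung and tumor shRenilla (difference 1.58 ± 0.27, adjusted p = 0.000201). Hmox1 averaged 111 ± 18.0 and 39.3 ± 6.61 CPM in lung and tumor shAsns-1, and 73.5 ± 30.8 and 87.4 ± 11.4 CPM in lung and tumor shRenilla (difference 1.75 ± 0.37). Atf3 rose with shAsns-1 and fell with shRenilla (-0.71), as Krt16 (-1.53), Bst2 (-1.28) and Inhba (-1.68) did. Of 31 chemokine and cytokine genes, 15 had a higher and 1 a lower site change with shAsns-1 than with shRenilla, and of 20 aminoacyl-tRNA synthetases 10 had a higher one. Over all genes, 6.96% had a higher site change and 7.27% a lower one. Prl3d2 (-2.17 ± 0.38) and Cth (-1.72 ± 0.29) had a lower one.

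A smaller set was called in the same direction with all hairpins. Of the 1726 genes called in the same direction with shRenilla and shAsns-2, 232 (13.4%) were also called in that direction with shAsns-1, 175 higher and 57 lower in lung. Of all 12625 genes, 8.55% were called with shAsns-1, 6% higher and 2.54% lower. The genes named next were chosen after their values were seen. 1700012B09Rik had 20.7, 16.0, 22.4 and 17.8 CPM in lung shAsns-1 and 3.78, 1.70, 2.85 and 2.69 CPM in tumor shAsns-1 (2.80 ± 0.20, adjusted p = 1.48e-09), with log2 fold changes of 2.98 for shRenilla and 3.06 for shAsns-2. Ptgs1 (1.43, 1.60 and 1.41 for shAsns-1, shRenilla and shAsns-2), Il11 (1.34, 1.88 and 1.38) and Cyp1b1, a cytochrome of steroid and xenobiotic metabolism (1.19, 1.91 and 1.27), also rose, with no called difference from shRenilla (adjusted p = 0.765, 0.31 and 0.0835). Serpine2, a thrombin inhibitor, changed by 1.20, 3.09 and 2.15, a difference from shRenilla of -1.89 ± 0.34 (adjusted p = 0.000432).

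Of those lower in lung with every hairpin, Idi1 changed by -1.04, -1.01 and -1.26 with shAsns-1, shRenilla and shAsns-2, and Insig1 by -0.94, -1.36 and -2.06. Fgfbp1, a carrier of fibroblast growth factors, had 1.83, 1.09, 1.02 and 1.43 CPM in lung shAsns-1 and 5.76, 11.5, 6.26 and 3.36 CPM in tumor shAsns-1 (-2.33 ± 0.29, adjusted p = 2.25e-05). Its tumor level was 76.8 ± 13.1 CPM with shRenilla, where the log2 fold change was -4.60, a difference of 2.27 ± 0.39. Serpinb5 fell by 1.07 with shAsns-1 and by 3.13 with shRenilla, a difference of 2.06 ± 0.38 (adjusted p = 0.000455). The call with shAsns-1 was lost without tumor A, tumor B, lung C or lung D.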

How the data were processed

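Per the labels' protocols, RNA came from Trizol extraction, and the kit for sequencing was NuGEN's Ovation RNAseq V2. The authors deposited raw counts per gene symbol. Bowtie2, HTSeq and the build mm10 are named in the submitters' processing notes; versions, annotation, strand setting and filters are not given in the sources used here, so genes that overlap on opposite strands may share counts. The counts were used as deposited. The test was the robust quasi-likelihood fit of edgeR 4.0.16 (R 4.3.3) with TMM scaling and the filterByExpr filter, over all 24 libraries with 1 mean for each of 6 groups of 4, so that groups share 1 estimate of the spread (biological coefficient of variation 14.9%). P-values were adjusted by Benjamini-Hochberg within a comparison, over 12625 genes. Each standard error was taken as the size of the log2 fold change divided by the root of its F. Levels are CPM on the TMM scale, and log2 CPM used a prior count of 2. No 2 libraries of the 8 agreed within sampling noise (lowest chi-square per degree of freedom 4.74).

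The members, lists and rules were chosen with earlier results of these data known. Genes to be named were Asns and Hprt, the 10 largest called changes each way with a mean log2 CPM of 3 or more and no overlap, up to 4 called members of each of 28 lists, 9 genes of epithelial-mesenchymal transition, the 5 largest called differences from shRenilla each way, and up to 3 called members of each marker list. The differences from shRenilla were ranked among genes with a mean log2 CPM of 3 or more over the libraries of both hairpins. Other list members are given by value. Some genes that these rules name are not reported here, though counts and medians of lists include them. Of list symbols, only Ly6g was not matched. Positions and GC content came from GENCODE M21. On simulated counts for lung against tumor in shAsns-1, edgeR found 59.7% of the genes changed 1.5-fold, 83.6% of those changed 2-fold and 97% of those changed 4-fold. Of 12425 genes left unchanged, 11 were called. Simulated libraries were drawn independently, with no library set apart and no trend with GC content, unlike the real ones. These shares may therefore not hold for the real counts. Alternatives were DESeq2 1.42.0, limma 3.58.1, other scalings, filters, depths and samples, a replicate block and each library left out.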

Additional observations from a re-analysis of the deposited data

Results flagged for a closer look

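Within a group of 4 libraries, a library counts as standing apart when its gap to the nearest other library is a large part of the whole range (Dixon's criterion), which chance gives in about 1 of 20 groups. It was applied to each reported named gene in both groups, without adjustment for their number, so chance alone may give some of those listed. Library lung D stood apart from the other lung libraries for Lox (6.10 CPM against 0.701 to 1.36), Prrx1 (3.55 CPM against 0.647 to 0.803), Col3a1 (8.53 CPM against 0.311 to 1.60) and Col5a2 (10.0 CPM against 2.06 to 3.27). Lung D did so for Col1a2 (8.53 CPM against 0.895 to 2.09), Il33 (13.9 CPM against 3.58 to 4.71), Iigp1 (5.75 CPM against 0.161 to 0.343) and Ifit3 (12.8 CPM against 1.13 to 1.52). Lung D did so for Ifi44 (28.1 CPM against 1.69 to 3.15), Ereg (11.4 CPM against 1.21 to 2.89) and Il11 (37.2 CPM against 24.3 to 26.4). Library lung B stood apart from the other lung libraries for Cdh1 (24.5 CPM against 18.6 to 19.2), Macc1 (8.06 CPM against 4.38 to 4.83) and Esrp1 (3.85 CPM against 0.0772 to 0.401). Library tumor B stood apart from the other tumor libraries for Gpr97 (13.5 CPM against 23.3 to 24.0), Scd2 (618 CPM against 312 to 358), Hcfc1r1 (40.7 CPM against 23.1 to 26.0) and AI413582 (39.9 CPM against 26.0 to 26.7). Tumor B did so for Insig1 (19.7 CPM against 9.99 to 10.8), Timp3 (0.462 CPM against 0.197 to 0.229), Tap2 (1.85 CPM against 1.47 to 1.52) and Aars (80.8 CPM against 69.4 to 71.0). Tumor B did so for Hmgcs1 (152 CPM against 103 to 105). Library tumor A stood apart from the other tumor libraries for Slc43a2 (1.26 CPM against 1.67 to 1.73).

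The site change with shAsns-1 differed from that with shRenilla in 1797 genes and from that with shAsns-2 in 1468, by edgeR's test of the difference. Values below are log2 fold changes of lung over tumor with shAsns-1 less those with shRenilla. The difference was positive at 3.19 for Rgs16, 3.15 for Lox, 3.10 for Bst2, 3.09 for Krt14, 2.69 for Lamb3, 2.64 for Ctgf and 2.60 for Inhba. It was 2.51 for Krt16, 2.44 for Rn45s, 2.38 for Esrp1, 2.37 for Macc1, 2.34 for Cxcl2, 2.27 for Fgfbp1, 2.23 for Mmp12 and 2.13 for Acta2. It was 2.06 for Serpinb5, 1.92 for Cdh1, 1.81 for Serpina3g, 1.78 for Mmp2, 1.75 for Hmox1, 1.68 for Cldn3, 1.58 for Icam1 and 1.52 for Atf3. It was 1.39 for Clu, 1.38 for Krt7, 1.26 for P4ha2, 1.11 for Cd274, 1.08 for Col12a1, 1.06 for Epcam, 1.00 for Smad7 and 0.96 for Sdc3. It was 0.95 for Tap2, 0.92 for Ocln, 0.87 for Abca3, 0.81 for Ier3, 0.78 for Farsa, 0.76 for Itgb5, 0.75 for Perp and 0.75 for Sars. It was 0.73 for Car12, 0.69 for P4hb, 0.64 for Herpud1, 0.50 for Yars, 0.46 for Aars and 0.44 for Mthfd2. The difference was negative at -3.95 for Tslp, -3.94 for Amigo2, -3.53 for Mgp, -3.17 for Trib2, -2.76 for Sema6d, -2.17 for Prl3d2, -2.11 for Xlr and -1.99 for Prl3d3. It was -1.89 for Serpine2, -1.72 for Cth, -1.67 for Prl3d1, -1.30 for AI413582, -0.77 for Twist1, -0.73 for Zeb2, -0.71 for Adss, -0.65 for Prdx1 and -0.49 for Vim. The call of the difference was lost in 18 of 25 settings for Aars, 16 of 25 for Vim, 16 of 24 for Serpina3g, 15 of 25 for Sars and 13 of 25 for Ier3, and in at most 12 for each of the others. Causes of these differences were not tested.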

How the results depend on the processing

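Counts of calls varied with the test, the libraries in the fit, the offsets and the depth. Against 1079 genes called between lung and tumor with shAsns-1, limma with library weights called 4116, a fit of only the compared groups 3683, a fit that leaves out the 2 far libraries (shRenilla B and shAsns-2 D, both lung) 3015, GC and length offsets (added after seeing the data) 1798, and counts thinned to the smallest library 695; 260 remained at 2-fold or more. Leaving out each of the 8 libraries gave 412 (without lung D) to 794. Against 1797 for the difference from shRenilla, limma called 3676 and left-out libraries gave 1334 to 1858. Against 1468 for the difference from shAsns-2, limma called 5032, the fit without the 2 far libraries 4097, and left-out libraries gave 928 (without lung shAsns-2 A) to 3064 (without lung shAsns-2 D). The cause was not tested. DESeq2 size factors gave 667 higher and 399 lower genes, DESeq2 841 and 577, no filter 605 and 275.

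A replicate block gave 1150, 1831 and 1519 calls for the 3 counts; no called direction reversed, and Mthfd2, Ifi44, Iigp1 and the differences of Aars and Vim from shRenilla lost their call; same-lettered libraries of the 2 sites correlated at -0.20 to 0.22, and 1 of 4 letters correlated best with its own, and the letters were not treated as pairs. Of 112 called genes among the 127 named, 65 kept their call in all 17 settings and 47 lost it in at least 1. Zeb2, not called, changed sign with GC and length offsets (0.000357), and without single libraries ranged from -0.0789 to 0.0347 on the log2 scale. Calls of Iigp1, Ifit3, Ifi44, Col1a2, Il33, Mmp2 and Serpinf1 ended without lung D. Genes under about 1 CPM rest on few counts, and genes such as Col1a1 were not testable at this depth.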
